A study of Homo sapiens with 9 samples.

Results

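Enzymes of phase II conjugation join a polar group to steroids, bile acids, bilirubin, drugs and reactive lipids, which makes these compounds more soluble and readies them for export from the hepatocyte. UDP-glucuronosyltransferases (UGT) sit in the endoplasmic reticulum membrane and transfer glucuronic acid from UDP-glucuronic acid. Glutathione S-transferases (GST) couple glutathione to electrophiles, with cytosolic, mitochondrial and microsomal (MGST) classes. Cytosolic sulfotransferases (SULT) transfer sulfonate from 3'-phosphoadenosine 5'-phosphosulfate (PAPS).

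The mRNAs of these enzymes were followed in Huh-7 cells, an established human hepatoma line. The genes were chosen by name alone: every protein-coding gene whose symbol begins with UGT1A, UGT2A, UGT3A or UGT2B or with GST, MGST or SULT followed by a class letter, where there is one, and a number. This gave 54 of the 58735 genes counted, namely 21 UGT, 20 GST and 13 SULT genes. Poly(A) RNA was sequenced from 3 groups of 3 libraries each, 9 in all. The control group was Huh-7 cells labelled WT, Ako-3 was Huh-7 with APOB knock out, and Mko-3 was Huh-7 with MTTP knock out. APOB encodes apolipoprotein B and MTTP the microsomal triglyceride transfer protein that loads lipid onto it. Each knockout is 1 clone made with Cas9, and the same control libraries serve both, so clone and genotype cannot be told apart. According to the labels, cells of every group were grown in DMEM with fetal bovine serum to near confluence, washed, and left overnight without serum before RNA was taken. The replicates are labelled biological, with no word on separate cultures, so p-values measure the spread between these libraries.

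Library totals ran from 14638727 to 20179760 counts. APOB stood at 179 to 258 FPKM (fragments per kilobase of gene length, scaled for library depth) in control, 83.6 to 94.6 in Ako-3 and 208 to 227 in Mko-3 libraries, and MTTP at 111 to 121, 99.3 to 109.8 and 15.3 to 16.6, so that each targeted mRNA was low in the clone labelled for it. All 9 hepatocyte markers examined (among them ALB, AFP and APOA1) were above 1 FPKM in each group, with summed levels of 5245 to 5425 FPKM in control, 6311 to 6644 in Ako-3 and 5077 to 5330 in Mko-3 libraries. Single hepatocyte markers moved more than their sum, which ALB and AFP dominate. By adjusted p 7 of the 9 were higher in Ako-3 than in control cells (median 0.51, APOA2 called at 1.02 ± 0.06), and in Mko-3 cells 2 were higher (AFP 0.80 ± 0.05) and 3 lower (ALB -0.49, APOA1 -0.43 and AHSG -0.96), with AHSG called lower in Mko-3 than in Ako-3 cells (-1.86 ± 0.06). Of the 4 biliary or progenitor markers KRT7 was at 0 in every library, while KRT19 was 2.92 ± 0.09 (SE, log2) and EPCAM 1.17 ± 0.07 higher in Mko-3 than in control cells and SOX9 went the other way (-0.41 ± 0.06, edgeR adjusted p = 1.4e-05). The summed biliary levels were 119.9 to 128, 118 to 124 and 166 to 171 FPKM. The 5 stromal markers summed to at most 1.25 FPKM (COL1A2 was called lower in both clones, -3.12 ± 0.50 and -3.10 ± 0.34) and the 4 blood markers to at most 0.194 FPKM in any library. COL1A2 passed the filter on low counts only through the control libraries and was not tested between the clones. It could thus be tested because it differed. Of the 3 endothelial markers, PECAM1 made up most of sums of 9.86 to 11.3, 13.5 to 14.6 and 7.30 to 7.97 FPKM, and it was 1.05 ± 0.06 (log2) lower in Mko-3 than in Ako-3 cells. The part of these marker differences in the values below was not tested.

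Several members are near copies of each other, and their counts rest on few distinguishing bases. GSTA1 (chr6:52791664-52803910, minus strand) and GSTA2 (chr6:52750089-52763569, minus strand) differ at 22 of 666 coding bases in the GENCODE release 44 canonical transcripts on hg38, and 88.4% of the stretches of 150 bases, the length of 1 read, are unique to each. SULT1A1 (chr16:28605196-28623625, minus strand) and SULT1A2 (chr16:28591943-28597109, minus strand) differ at 28 of 885 coding bases, and each such stretch of SULT1A1 and SULT1A2 is unique. For both pairs, unique means absent from the transcripts of all other genes with UGT, GST or SULT in their names. Transcripts of the remaining genes were not searched. Of the exon bases of SULT1A1 and SULT1A2, 23.15% and 22.07% also lie in exons of other genes, none of them a member. The first 150 coding bases of both pairs are shown because the results turn on telling these genes apart, with the bases at which the members of a pair differ in capitals.
GSTA1: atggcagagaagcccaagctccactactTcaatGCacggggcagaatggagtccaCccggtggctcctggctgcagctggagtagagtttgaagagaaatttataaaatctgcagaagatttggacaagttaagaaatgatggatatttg
GSTA2: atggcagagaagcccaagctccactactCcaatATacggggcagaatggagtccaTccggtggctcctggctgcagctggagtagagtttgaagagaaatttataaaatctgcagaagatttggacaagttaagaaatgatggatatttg
SULT1A1: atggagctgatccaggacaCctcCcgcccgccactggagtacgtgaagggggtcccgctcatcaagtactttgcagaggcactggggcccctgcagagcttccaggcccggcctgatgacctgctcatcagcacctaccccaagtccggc
SULT1A2: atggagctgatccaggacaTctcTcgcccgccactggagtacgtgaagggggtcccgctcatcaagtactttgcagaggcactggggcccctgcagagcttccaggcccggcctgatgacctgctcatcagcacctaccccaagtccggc

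In all, 32 of the 54 members were marked as close paralogs, 28 of them because their coding sequence is at least 80% identical to another member's and 13 because their exons overlap those of another member. UGT2B15 and UGT2B17 are 96.5% identical and UGT2B11 and UGT2B28 are 97.0% identical. The 9 UGT1A genes share their last exons, and SULT1A3 and SULT1A4 have the same coding sequence throughout. Counts of these genes are uncertain wherever the counting could split or drop shared reads, and the handling of such reads is not given in the sources used here.

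The upstream windows of GSTA1 and GSTA2, from 250 bases before to 50 after the start site, were also near copies. Compared without gaps they differed at 12 of 300 bases (96.0% identity). Motif letters were searched on both strands in the windows of the 45 members that have one, and in all 35116 RefSeq windows (GRCh38.p14) of the same length. These members had 50 windows. The antioxidant response element core TGACNNNGC was in 11 of the 50, the xenobiotic response element core GCGTG in 14 and the HNF4 letters CAAAGTCCA in none. Over all windows the shares were 13.35%, 36.54% and 0.38%. Among windows of the genes tested below they were 14.63%, 47.3% and 0.44%. A match describes the letters only.

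GST mRNA was far more abundant than UGT or SULT mRNA. Summed over the family, the GST members stood at 612 ± 23.7 FPKM (SD, n = 3) in control, 736 ± 17.7 in Ako-3 and 736 ± 19.0 in Mko-3 cells, and GSTP1 alone gave 65.4% to 69.0% of the group means. The SULT members summed to 28.5 ± 1.77, 43.2 ± 1.17 and 27.4 ± 0.217 FPKM, of which SULT1A1 was the largest part (46.7% to 52.6%). UGT members summed to 7.69 ± 0.832, 21.4 ± 1.37 and 11.8 ± 0.523 FPKM, with UGT2B4 as the leading mRNA. The UGT sum was thus 2.78-fold the control mean in Ako-3 and 1.54-fold in Mko-3 cells, with no overlap between the 3 groups of libraries. The GST sums lay above control in both clones (1.20-fold in each) and overlapped between the clones. The SULT sum was 1.52-fold the control mean in Ako-3 cells, while the Mko-3 libraries (27.2 to 27.6 FPKM) lay within the control range of 26.6 to 30.2. No test was run on sums, and with 3 libraries against 3 an exact two-sided permutation test cannot go below p = 0.1.

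**Figure D1:**
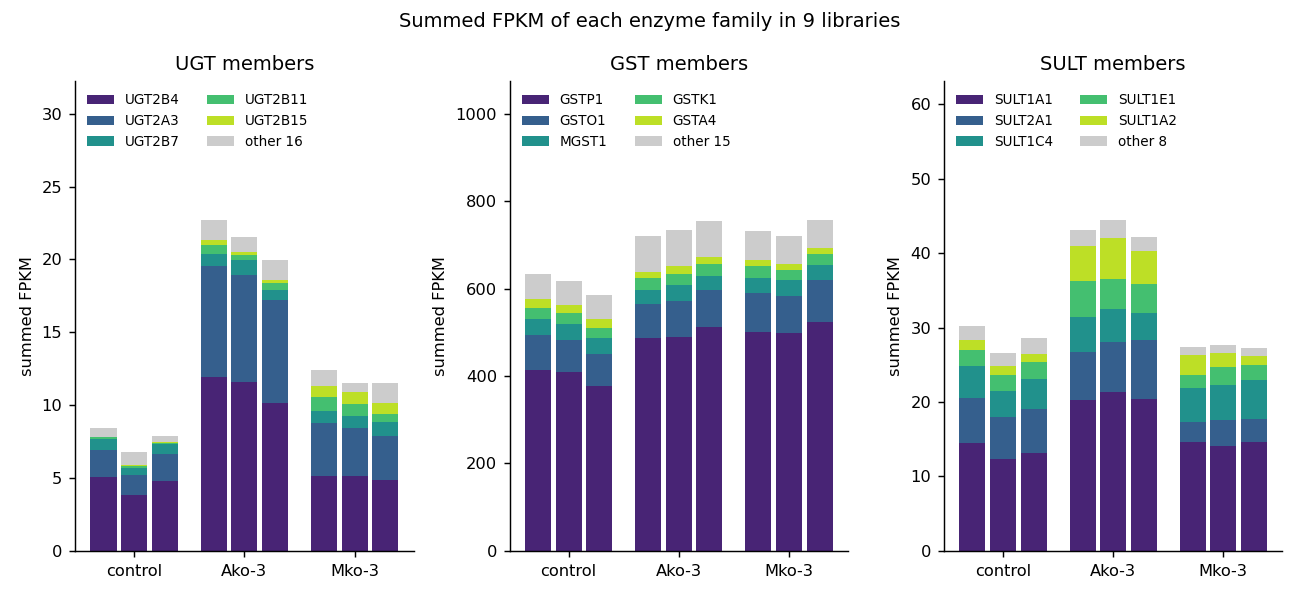
Summed FPKM (y axis, linear from 0) of the 21 UGT, 20 GST and 13 SULT members in each of the 9 libraries, 3 bars per group, stacked by the 5 most abundant members with the others in grey. UGT sums run from 6.78 to 8.41 in control, 20.0 to 22.7 in Ako-3 and 11.5 to 12.4 in Mko-3 libraries, and GSTP1 fills most of each GST bar.

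Each member was compared between groups with edgeR's quasi-likelihood test across all genes that passed a filter on low counts. A gene was called when its absolute log2 fold change was at least 1 and its Benjamini-Hochberg adjusted p at most 0.05 over all genes tested. Of the 54 members, 29 were tested in at least 1 comparison (7 UGT, 15 GST and 7 SULT) and 25 in none, 15 of which had at most 3 counts in every library. Among these, 8 had no count at all: UGT1A5, UGT2A1, UGT2A2, GSTA5, GSTT4, SULT1A4, SULT1C3 and SULT4A1. For UGT1A5, UGT2A1, UGT2A2 and SULT1A4, which share most of their exon bases with other genes, a count of 0 may also reflect how shared reads were counted, which was not tested. For the others no mRNA was detectable at this depth. UGT2B11, UGT2B15 and UGT3A1 passed the filter only through knockout libraries and SULT1B1 against Mko-3 only through the control libraries, so that these 4 could be tested because they differed.

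In Ako-3 cells 7 of 27 tested members were higher than in control and none was lower by this rule. Over all 15787 genes tested, 3.52% were called higher and 5% lower. The median log2 difference of the 27 members was 0.24, beside -0.01 over all genes. By adjusted p alone 13 members were higher and 2 lower, where 49.9% of all genes passed in either direction. The 7 called were GSTA1, GSTA2, GSTO2, SULT1A2, UGT2A3, UGT2B4 and UGT2B11, all among the genes that the study's own pathway table lists from these libraries, so that their direction is not independent evidence. The same table lists UGT2B15. UGT2B11 passed the filter only through the Ako-3 libraries.

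Against the same control libraries, Mko-3 cells had 3 of 29 members called higher and 1 lower (3.82% and 7.22% of all 15745 genes). UGT2B11, UGT2B15 and UGT3A1 were higher and SULT1B1 was lower. All 4 passed the filter only through the group in which they were higher. They drop out of the test when at least 10 counts are required in every library. Their number is therefore not evidence of an excess over the shares of all genes. The median of the 29 members was 0.20 beside -0.01 over all genes, and 12 members were higher and 7 lower by adjusted p alone (54% of all genes in either direction).

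Compared directly, 8 of 29 members were lower and 2 higher in Mko-3 than in Ako-3 cells, beside 3.47% and 2.26% of all 15528 genes. GSTA1, GSTA2, SULT1A2, SULT1C2, SULT1E1, SULT2A1, UGT2A3 and UGT2B4 were lower and UGT2B15 and UGT3A1 higher in Mko-3 cells. UGT2B15 and UGT3A1 passed the filter only through the Mko-3 libraries. The members' median was -0.28 and that of all genes 0.00, and 5 members were higher and 12 lower by adjusted p alone (41.6% of all genes in either direction).

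**Figure D2:**
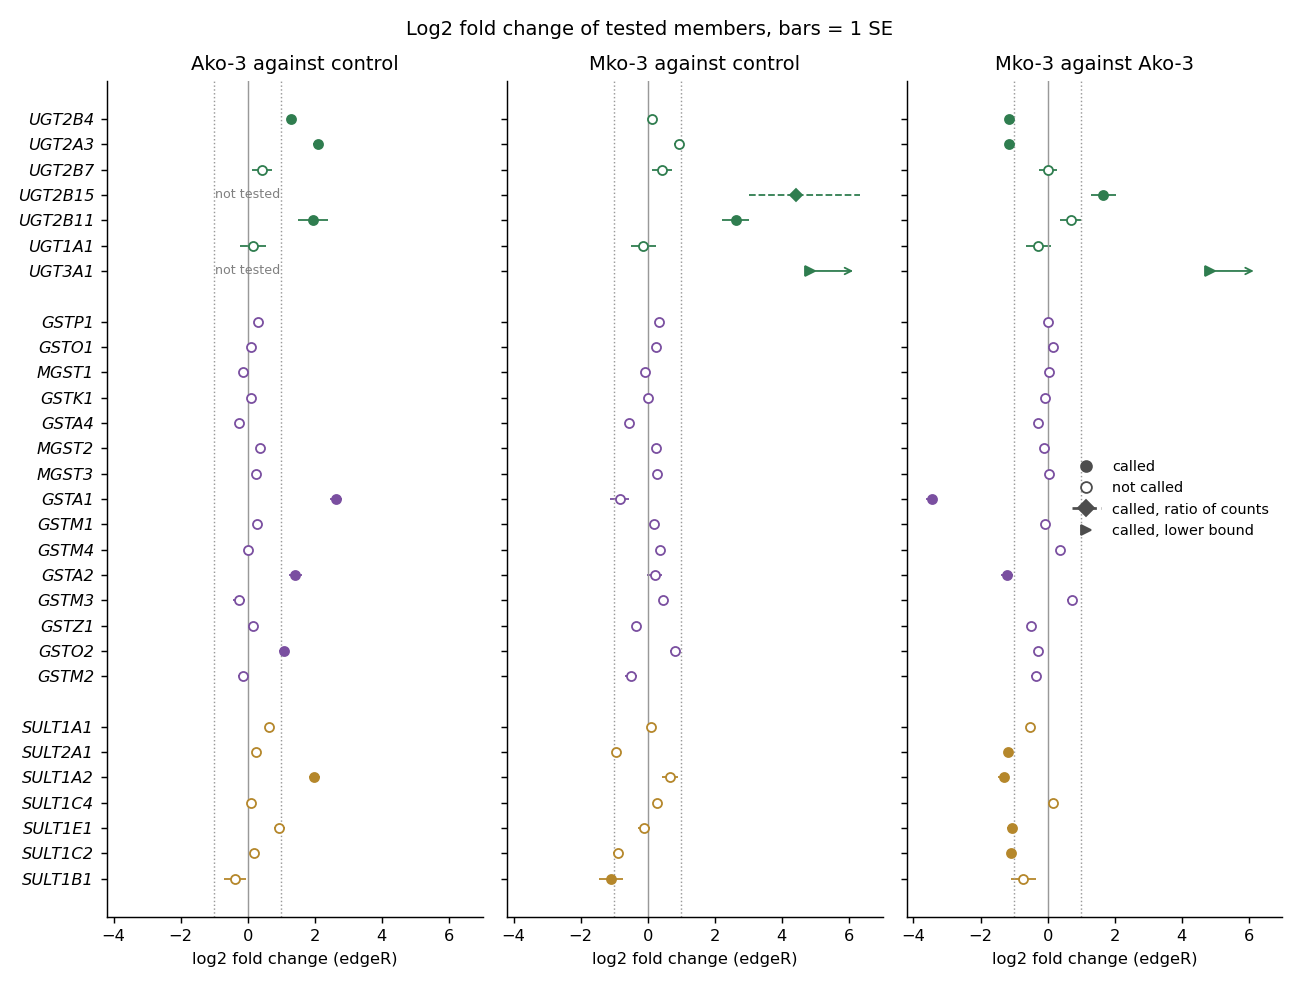
Log2 fold change (x axis) of the 29 tested members in the 3 comparisons, with bars of 1 SE, filled symbols for called members and dotted lines at -1 and 1. UGT2B15 against control is drawn as a ratio of counts with its 95% counting interval (diamond) and UGT3A1 as a lower bound (arrow), since its other group is at 0. GSTA1 lies at 2.63 in Ako-3 against control and at -3.45 in Mko-3 against Ako-3.

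Among the UGT genes, those of the UGT2 families made up most of the summed FPKM. UGT2B4, which conjugates bile acids, was the most abundant. Its level was 5.07, 3.82 and 4.77 FPKM in control, 11.9, 11.6 and 10.2 in Ako-3, and 5.11, 5.16 and 4.84 in Mko-3 libraries. All Ako-3 values were above all others, while the Mko-3 values overlapped the control range. The edgeR log2 difference was 1.29 ± 0.11 (SE, adjusted p = 1.6e-08) for Ako-3 and 0.13 ± 0.13 (adjusted p = 0.41) for Mko-3 against control, and Mko-3 was 2.24-fold lower than Ako-3 (adjusted p = 4.3e-18).

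UGT2A3, a bile acid glucuronosyltransferase, gave 3 separate levels. It stood at 1.86, 1.41 and 1.86 FPKM in control, 7.61, 7.34 and 7.04 in Ako-3, and 3.67, 3.26 and 3.05 in Mko-3 libraries, with no overlap between groups. Ako-3 was 4.24-fold higher than control (log2 2.08 ± 0.13, edgeR adjusted p = 7.3e-11). The Mko-3 value was 0.94 ± 0.15 (adjusted p = 2.5e-05), just under the fold threshold, and the direct difference between the clones was -1.14 ± 0.10 (adjusted p = 8.7e-16).

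UGT2B11 was a low mRNA in every group. The libraries had 6, 4 and 5 counts in control, 23, 16 and 21 in Ako-3, and 39, 34 and 20 in Mko-3 cells, or 0.122 ± 0.013, 0.483 ± 0.128 and 0.770 ± 0.195 FPKM (SD, n = 3). Both clones lay above control, by 1.94 ± 0.45 (edgeR adjusted p = 0.0012) and 2.62 ± 0.41 (adjusted p = 1.4e-05) on the log2 scale. They overlapped each other, with a direct difference of 0.69 ± 0.32 (adjusted p = 0.076). When the near-identical UGT2B10, UGT2B11 and UGT2B28 were summed, the differences from control were 1.87 ± 0.37 in Ako-3 and 1.97 ± 0.37 in Mko-3 cells, both called. This sum holds the same UGT2B11 reads and is not separate evidence. In the Mko-3 libraries UGT2B11 gave 93 counts, UGT2B10 8 and UGT2B28 5, beside 15, 10 and 2 in control.

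UGT2B15, an androgen-conjugating enzyme, had 0, 3 and 1 counts in control, 12, 9 and 6 in Ako-3, and 27, 31 and 24 in Mko-3 libraries. The groups did not overlap, with control lowest and Mko-3 highest. With so few control counts the ratio to control is given with its 95% counting interval, which covers counting error only: 6.66 (2.32 to 26.2) for Ako-3 and 21.4 (8.04 to 80.3) for Mko-3. Control replicate 2 holds 3 of the 4 control counts, and the fitted log2 value of Mko-3, which depends on the prior count, ran from 3.66 without control replicate 1 to 5.56 without control replicate 2, called in each case. The Mko-3 difference was called (edgeR adjusted p = 2.6e-06), Ako-3 was not tested against control, and Mko-3 was 3.16-fold higher than Ako-3 (log2 1.66 ± 0.38, adjusted p = 2.3e-04). Its near copy UGT2B17 had 2, 1 and 0 counts in control, 1, 6 and 3 in Ako-3 and 8, 3 and 13 in Mko-3 libraries. The sum of UGT2B15 and UGT2B17 was called in Mko-3 cells (3.87 ± 0.47 against control). This sum holds the same UGT2B15 reads and is not separate evidence.

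UGT3A1 (chr5:35951010-36001028, minus strand), which uses UDP-N-acetylglucosamine in place of UDP-glucuronic acid, had counts in the Mko-3 libraries and in no other. All control and Ako-3 libraries had 0 counts, and the Mko-3 libraries had 44, 15 and 23. Taking 3 counts over a group as the most that a count of 0 allows, Mko-3 was at least 28.5-fold higher than control and at least 28.9-fold higher than Ako-3. The difference was called in both comparisons (edgeR adjusted p = 2.4e-06 and 6.3e-11), at a low level of 0.291, 0.0998 and 0.176 FPKM. Its close paralog UGT3A2 (85.7% coding identity) had at most 3 counts in every library.

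UGT2B7, which glucuronidates opioids and steroids, stood at 0.633 ± 0.151 FPKM in control, 0.854 ± 0.168 in Ako-3 and 0.871 ± 0.042 in Mko-3 cells, and its differences from control of 0.42 ± 0.30 and 0.43 ± 0.29 did not pass the test. UGT1A1, the bilirubin-conjugating enzyme, was the single UGT1A gene that was tested, at 0.233, 0.259 and 0.211 FPKM, and it passed no test. The 9 UGT1A genes together summed to 0.475 ± 0.204, 0.765 ± 0.150 and 0.479 ± 0.236 FPKM. UGT1A3 was too low for the filter, with 0, 2 and 0 counts in control, 6, 5 and 10 in Ako-3 and 0, 0 and 1 in Mko-3 libraries, and its ratio of Ako-3 to control was 10.4 with a counting interval of 2.53 to 91.1. UGT1A6, also untested, went the other way, with 6, 2 and 6 counts in control and 2, 1 and 0 in Ako-3 libraries. Its ratio of Ako-3 to control was 0.211 (0.0389 to 0.757). Summed, the counts of the UGT1A genes differed from control by 0.45 ± 0.28 in Ako-3 cells (edgeR adjusted p = 0.2), which was not called. Since UGT1A genes share exons, which of them gave these reads is uncertain.

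Every UGT2A and UGT2B member lies with SULT1B1 and SULT1E1 in 1323 kb of chromosome 4, from UGT2B17 (chr4:68537184-68568527, minus strand) to SULT1E1 (chr4:69841212-69860152, minus strand) in the coordinates of the files. Within this stretch the size of the difference varied between genes, and a shift shared by the stretch was not tested. In Ako-3 against control 6 of the 12 genes were tested. Their log2 values ran from -0.38 ± 0.33 for SULT1B1 to 2.08 for UGT2A3, with UGT2B7 at 0.42 between its neighbours UGT2A3 and UGT2B11. SULT1B1 and UGT2B7 did not pass the test (edgeR adjusted p = 0.35 and 0.25). Untested UGT2B15 and UGT2B28 had ratios of Ako-3 to control of 6.66 (2.32 to 26.2) and 6.90 (1.59 to 62.6). For UGT2B17 the ratio was 3.29, with a counting interval of 0.846 to 18.6. UGT2B10 had 6, 2 and 2 counts in control and 9, 9 and 10 in Ako-3 libraries. In Mko-3 cells SULT1B1 was lower and UGT2B11 and UGT2B15 higher, while UGT2B4 and SULT1E1 lay at 0.13 and -0.12.

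**Figure D3:**
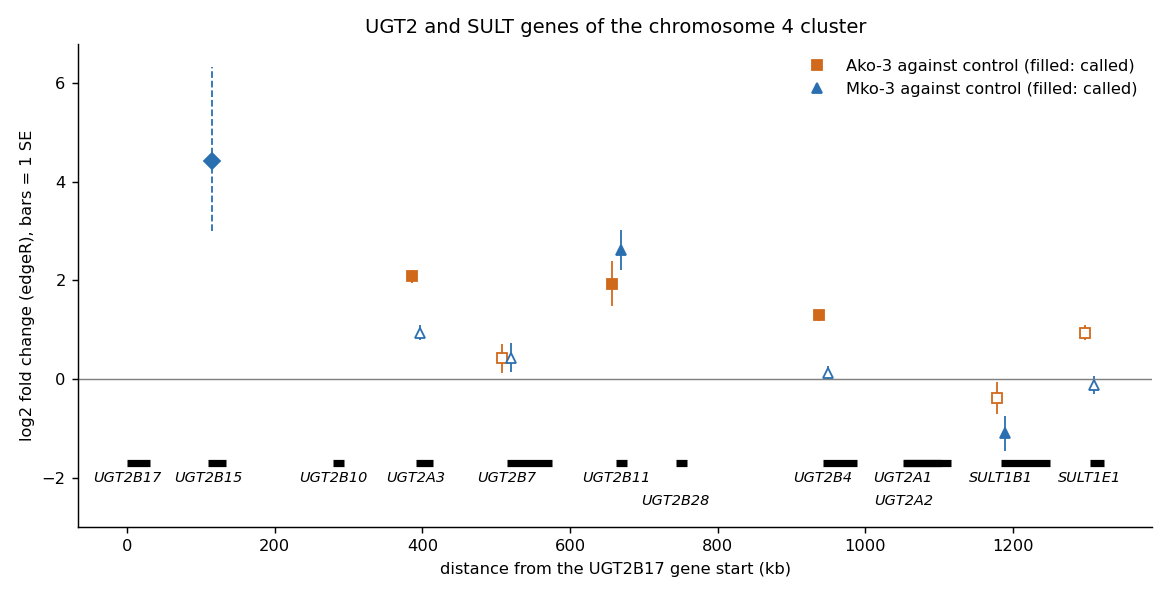
Log2 fold change against control (y axis, bars of 1 SE, filled where called) of the tested genes of the chromosome 4 cluster by distance from the start of UGT2B17 (x axis, kb), with Ako-3 as squares and Mko-3 as triangles. The diamond is the ratio of UGT2B15 counts with its 95% counting interval, and the black bars below are the 12 genes. In Ako-3, UGT2A3 lies at 2.08 and its neighbour UGT2B7, which did not pass the test, at 0.42.

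Of the 15 tested GST genes, GSTA1, GSTA2 and GSTO2 were called in a comparison and 12 were not. GSTA1, the main alpha-class enzyme of liver with peroxidase and steroid isomerase activity, stood at 1.83, 3.15 and 3.34 FPKM in control and 16.8, 15.9 and 18.6 in Ako-3 libraries. The Mko-3 libraries were at 1.49, 1.83 and 1.34 and overlapped control at its lowest value. Ako-3 was 6.17-fold above control (log2 2.63 ± 0.17, edgeR adjusted p = 1.9e-10). The Mko-3 value was -0.83 ± 0.28 against control (adjusted p = 0.015), under the fold threshold, and without control replicate 1 this value was -1.07 and called. Between the clones the difference was 10.95-fold (-3.45 ± 0.16, adjusted p = 8.7e-31), the largest decrease among the tested members.

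GSTA2 followed with a smaller difference. Its levels were 1.74, 1.85 and 2.13 FPKM in control, 5.88, 4.85 and 4.63 in Ako-3, and 2.35, 2.49 and 1.78 in Mko-3 libraries. The Ako-3 values were above the rest, by 2.67-fold over control (log2 1.41 ± 0.19, edgeR adjusted p = 3.1e-06), and the Mko-3 and control libraries overlapped (0.20 ± 0.23, adjusted p = 0.47). Summed with its near copies GSTA1, GSTA3 and GSTA5, the difference was 2.17 ± 0.14 in Ako-3 and -0.26 ± 0.19 in Mko-3 cells against control, with only the former called. GSTA3 had 1 count in the control libraries and none elsewhere, and GSTA5 had none. The sum thus repeats the GSTA1 and GSTA2 reads (936 and 361 counts in Ako-3) and is not separate evidence for GSTA2.

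GSTA4, which detoxifies 4-hydroxynonenal from lipid peroxidation, went the other way. It stood at 20.8, 19.5 and 19.7 FPKM in control, 15.6, 17.3 and 16.9 in Ako-3, and 14.8, 13.4 and 12.8 in Mko-3 libraries, with no overlap between groups. The differences from control were -0.27 ± 0.08 (edgeR adjusted p = 0.0069) and -0.56 ± 0.08 (adjusted p = 8.5e-06), both under the fold threshold. GSTA4 was the leading GSTA mRNA in control and Mko-3 cells (81.0% and 78.5% of the GSTA sum), and GSTA1 in Ako-3 cells (43.98%).

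GSTO2, an omega-class enzyme that reduces dehydroascorbate, stood at 0.606 ± 0.108 FPKM in control, 1.29 ± 0.117 in Ako-3 and 1.07 ± 0.051 in Mko-3 cells (SD, n = 3). The libraries of the 3 groups did not overlap. Ako-3 was 2.12-fold higher than control (log2 1.09 ± 0.15, edgeR adjusted p = 3.7e-06), Mko-3 was 0.80 ± 0.15 higher (adjusted p = 1.1e-04) without passing the fold threshold, and without control replicate 3 the Ako-3 value was 0.96 and no longer called. Its neighbour in class, GSTO1, was far more abundant per length, at 74.8 ± 3.83, 81.0 ± 3.88 and 90.2 ± 5.90 FPKM, and differed from control by 0.11 ± 0.07 (adjusted p = 0.18) and 0.26 ± 0.07 (adjusted p = 0.0025).

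GSTP1, the pi-class enzyme that is scarce in normal hepatocytes and abundant in many tumour cells, was the most abundant member in every library. It stood at 414, 409.7 and 377 FPKM in control, 488, 489.6 and 512 in Ako-3, and 501, 499 and 523 in Mko-3 libraries. Both clones were above control by similar small steps, 0.31 ± 0.06 (edgeR adjusted p = 1.8e-04) and 0.33 ± 0.06 (adjusted p = 4.9e-05), and their direct difference was 0.02 ± 0.04 (adjusted p = 0.62). This step of 23.7% in Ako-3 and 25.7% in Mko-3 cells made up most of the difference in the GST sums.

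Of the other members at 10 FPKM or more, MGST2 (14.3, 18.2 and 16.98 FPKM in control, Ako-3 and Mko-3) and MGST3 (14.6, 17.3 and 17.8) lay above control in both clones, by 0.35 ± 0.07 and 0.24 ± 0.07 in Ako-3 and by 0.24 ± 0.07 and 0.27 ± 0.06 in Mko-3 cells, all with edgeR adjusted p at most 0.0089. MGST1, a microsomal enzyme with glutathione peroxidase activity, was at 36.7 ± 0.78, 33.3 ± 1.05 and 34.7 ± 0.466 FPKM, and its Ako-3 difference of -0.14 ± 0.06 had an adjusted p of 0.050. GSTM1 (10.2, 12.3 and 11.7 FPKM) was 0.26 ± 0.09 higher in Ako-3 (adjusted p = 0.017) and its Mko-3 value was 0.18 ± 0.09 (adjusted p = 0.083). Without Ako-3 replicate 3 the Ako-3 value was 0.23 with an adjusted p of 0.082. GSTM1 shares 38.26% of its exon bases with other genes, and the sum of GSTM1, GSTM2, GSTM4 and GSTM5 differed from control by 0.09 ± 0.07 in Ako-3 cells (adjusted p = 0.31). GSTK1, of mitochondria and peroxisomes, was at 24.97, 26.7 and 25.4 FPKM and passed no test. In the mu class GSTM3 was 0.47 ± 0.15 and GSTM4 0.38 ± 0.08 above control in Mko-3 cells (adjusted p = 0.0099 and 6.6e-04), and both were also above Ako-3 (0.73 ± 0.15 and 0.38 ± 0.07, adjusted p = 4.2e-05 and 5.4e-06). GSTM2 went the other way, with 0.879 ± 0.14, 0.8005 ± 0.0787 and 0.634 ± 0.148 FPKM and a Mko-3 value of -0.49 ± 0.18 against control (adjusted p = 0.024). GSTZ1, maleylacetoacetate isomerase of tyrosine breakdown, was at 1.63, 1.83 and 1.30 FPKM, with -0.35 ± 0.12 for Mko-3 against control (adjusted p = 0.017) and -0.51 ± 0.11 against Ako-3 (adjusted p = 1.3e-04). None of these passed the fold threshold.

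**Figure D4:**
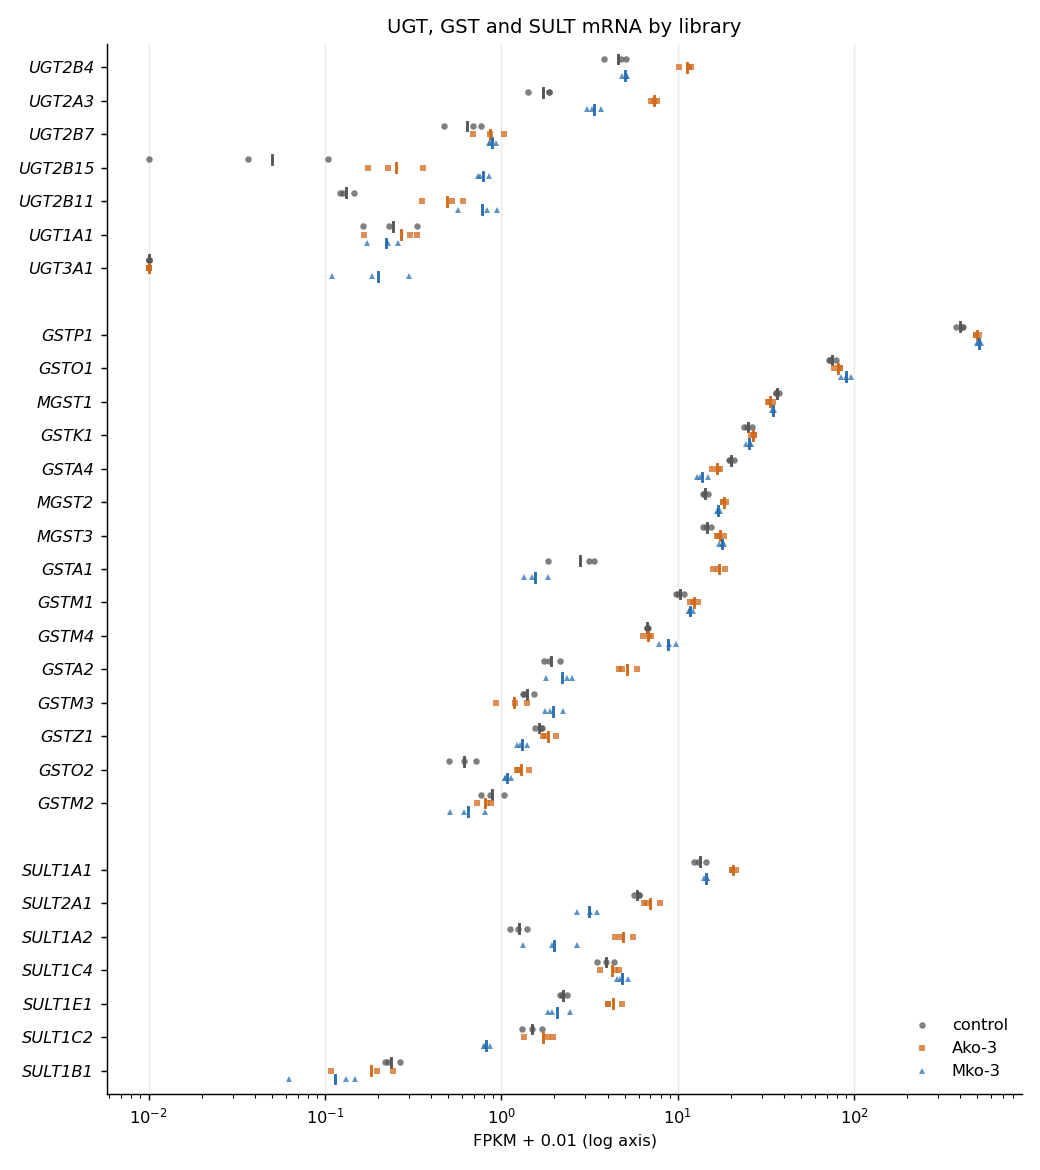
FPKM + 0.01 (x axis, log scale) of the 29 tested members in each library, with control as circles, Ako-3 as squares and Mko-3 as triangles and a short line at each group mean. The Ako-3 squares of GSTA1 (15.9 to 18.6 FPKM) stand clear of both other groups, and UGT3A1 is at 0 FPKM, drawn at 0.01, in control and Ako-3 libraries.

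SULT1A1, which sulfates simple phenols, was the main sulfotransferase mRNA. Its levels were 14.4, 12.4 and 13.1 FPKM in control, 20.3, 21.4 and 20.4 in Ako-3, and 14.7, 14.1 and 14.6 in Mko-3 libraries. Ako-3 libraries were above all others, by 0.63 ± 0.07 over control (edgeR adjusted p = 1.7e-07), which is under the fold threshold, and Mko-3 overlapped control (0.10 ± 0.07, adjusted p = 0.20). The close paralog SULT1A2 had the larger difference. It stood at 1.38, 1.24 and 1.11 FPKM in control, 4.75, 5.58 and 4.41 in Ako-3, and 2.66, 1.94 and 1.31 in Mko-3 libraries, where the lowest lay within the control range. Ako-3 was 3.94-fold higher than control (log2 1.98 ± 0.17, adjusted p = 6.6e-09), Mko-3 was 0.66 ± 0.23 higher (adjusted p = 0.021, not called), and Mko-3 was 2.48-fold lower than Ako-3 (adjusted p = 1.4e-09). Summed, SULT1A1 to SULT1A4 were 0.68 ± 0.07 higher in Ako-3 than in control cells, which was not called, since SULT1A1 holds most of the reads.

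SULT1E1, the estrogen sulfotransferase, stood at 2.14, 2.19 and 2.34 FPKM in control and 4.85, 4.03 and 4.002 in Ako-3 libraries. The Mko-3 libraries stood at 1.83, 2.43 and 1.93 and overlapped control, below all Ako-3 libraries. The Ako-3 difference of 0.94 ± 0.15 (edgeR adjusted p = 3.8e-05) did not reach the fold threshold, and that between Mko-3 and Ako-3 did (-1.06 ± 0.16, adjusted p = 3.6e-08). That last call was lost without Ako-3 replicate 1 (-0.97) or Mko-3 replicate 1 (-0.97).

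SULT2A1, which sulfates dehydroepiandrosterone and bile acids, was lowest in Mko-3 cells. It was at 6.05, 5.64 and 6.02 FPKM in control, 6.41, 6.69 and 7.87 in Ako-3, and 2.68, 3.49 and 3.17 in Mko-3 libraries. Mko-3 libraries were below all others. The value was -0.94 ± 0.14 against control (edgeR adjusted p = 8.2e-06), just short of the fold threshold and called without Mko-3 replicate 2 (-1.02), and -1.17 ± 0.13 against Ako-3 (adjusted p = 4.8e-12). SULT1C2 had the same order, with 1.49 ± 0.196, 1.71 ± 0.332 and 0.810 ± 0.0375 FPKM in control, Ako-3 and Mko-3 cells. Its Mko-3 value was -0.89 ± 0.14 against control (edgeR adjusted p = 1.3e-05), and it was 2.13-fold lower than in Ako-3 cells (-1.09 ± 0.13, adjusted p = 6.6e-11), the latter call being lost without Ako-3 replicate 2 (-0.97).

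SULT1B1, which sulfates thyroid hormones, had 30, 29 and 28 counts in control, 12, 34 and 24 in Ako-3, and 16, 18 and 6 in Mko-3 libraries. All Mko-3 values were below control in FPKM, with a log2 difference of -1.10 ± 0.36 (edgeR adjusted p = 0.013). The call was lost without Mko-3 replicate 3 (-0.80, adjusted p = 0.085) and with DESeq2 (adjusted p = 0.057). SULT1C4 stood at 3.92, 4.23 and 4.80 FPKM and passed no test.

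The genes that supply the co-substrates and handle the conjugates were looked at as lists. None of the 5 genes of UDP-glucuronate supply was called in either clone, with medians of 0.11 in Ako-3 and 0.22 in Mko-3 against control. UGDH, which makes UDP-glucuronic acid, was at 27.3, 23.5 and 27.0 FPKM in control, Ako-3 and Mko-3 cells. The 8 genes of PAPS supply likewise had no call, with medians of 0.24 and 0.25. Among them the sulfate transporter SLC26A1 was 0.86 higher in Ako-3 cells (8.99 and 16.3 FPKM in control and Ako-3).

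Of the 13 genes of glutathione supply and recycling, 3 were called lower in each clone and none higher. Over all genes 5% in Ako-3 and 7.22% in Mko-3 against control were called lower. The list medians were -0.22 and -0.10. The 3 called, SLC7A11, CTH and CHAC1, are among the genes that the study lists as most changed in Ako cells. Their direction is thus not independent evidence. SLC7A11, the cystine importer, stood at 8.91, 10.4 and 10.3 FPKM in control, 2.19, 2.21 and 2.09 in Ako-3, and 2.36, 2.48 and 1.68 in Mko-3 libraries. Its differences from control were -2.19 ± 0.08 (edgeR adjusted p = 7.4e-14) and -2.19 ± 0.12 (adjusted p = 1.2e-09). CTH, which makes cysteine from cystathionine, was lower by similar amounts (-2.09 ± 0.10 and -2.05 ± 0.13). CHAC1, which degrades glutathione, was also lower (-2.19 ± 0.11 and -1.91 ± 0.09). GCLC and GCLM, the subunits of the enzyme that limits glutathione synthesis, were not called, at -0.17 and -0.33 in Ako-3 and -0.03 and 0.04 in Mko-3 cells. Since both clones share the control libraries, their values for these genes are not independent. In the direct comparison of the clones none of the 13 was called.

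Of the 5 tested genes that release conjugates (7 listed), STS, the steroid sulfatase, was called higher in Mko-3 cells (1.23 ± 0.13, edgeR adjusted p = 9.1e-08) and was 0.79 ± 0.14 higher in Ako-3 cells (adjusted p = 9.0e-05) without a call. The list medians were 0.53 in Ako-3 and 0.02 in Mko-3 cells. No gene of the 8 conjugate efflux transporters was called in any comparison, with medians of 0.05 and 0.04, and ABCC3 had the lowest value, -0.88 in Ako-3 cells. Of 9 tested enzymes that attach other groups (11 listed), INMT was called lower in Mko-3 than in control cells (-2.58 ± 0.54, adjusted p = 3.6e-04) and than in Ako-3 cells, and NNMT, which methylates nicotinamide, was called higher in Mko-3 than in Ako-3 cells (1.33 ± 0.08, adjusted p = 2.1e-25). The medians of this list were 0.33 and 0.11. Among 6 tested relatives outside the name rule (8 listed), ALOX5AP (-1.15 ± 0.25) and LTC4S (-1.25 ± 0.50) were called lower in Mko-3 than in control cells. Both are of leukotriene synthesis and kin to the MGST proteins. The list medians were 0.23 and -0.29, and only 5 of these relatives passed the filter between the clones. Over all genes, 3.82% were called higher and 7.22% lower in Mko-3 than in control cells.

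Of 17 transcription factors of xenobiotic and liver gene control, 1 was called in Ako-3 (5.88%) and 2 in Mko-3 cells (11.8%), all lower, beside 8.52% and 11% of all genes called in either direction. AHR, the receptor for aryl hydrocarbons, stood at 18.1, 16.9 and 17.4 FPKM in control, 6.41, 7.03 and 6.23 in Ako-3, and 8.33, 8.41 and 7.72 in Mko-3 libraries, which is -1.42 ± 0.07 (edgeR adjusted p = 2.6e-12) and -1.11 ± 0.07 (adjusted p = 2.3e-11). AHR, too, is among the genes that the study lists as most changed in Ako cells. CEBPB was called in Mko-3 cells (-1.29 ± 0.07, adjusted p = 2.6e-12) and was at -0.75 ± 0.07 in Ako-3 cells. NFE2L2, which acts through the antioxidant element, did not pass the test in either clone (20.1, 19.6 and 19.7 FPKM). HNF4A was 0.70 ± 0.06 higher in Ako-3 (adjusted p = 3.4e-09) and 0.30 ± 0.06 higher in Mko-3 cells (adjusted p = 1.1e-04). The list as a whole did not share this direction, with medians of -0.04 for Ako-3 and -0.26 for Mko-3 against control. For Ako-3, adjusted p alone put 5 of the 17 factors above control and 5 below. For Mko-3 it put 3 above and 9 below.

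**Figure D5:**
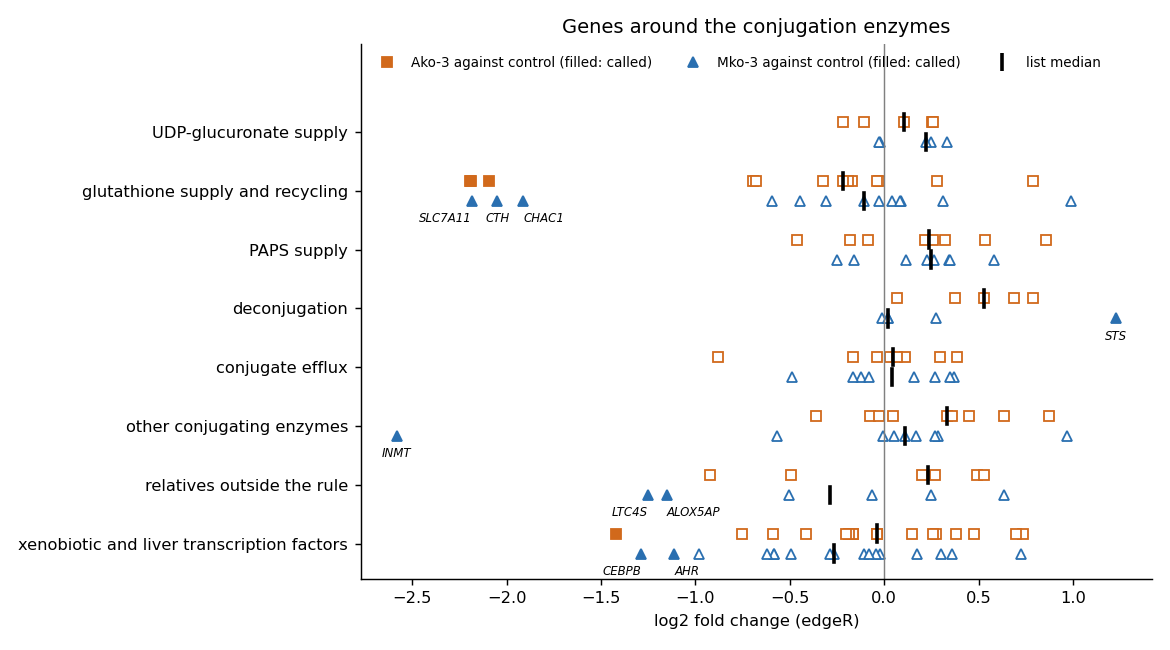
Log2 fold change against control (x axis) of each tested gene in 8 lists of co-substrate, conjugate and regulator genes (y axis), with Ako-3 as squares, Mko-3 as triangles, filled where called, and a black line at each list median. SLC7A11, CTH and CHAC1 lie near -2 in both clones, while most other genes lie between -1 and 1.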

How the data were processed

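RNA sequencing of Huh-7 control, Ako-3 and Mko-3 cells was analysed, 3 libraries each, grouped by their labels. Per the labels and the study's methods, the authors had paired reads of 150 bases aligned to hg38 with HISAT2 2.0.5 and counted on genes with featureCounts 1.5.0-p3, versions from the submitters' processing notes, and deposited raw counts without normalization. The FPKM values deposited by the authors equal these counts divided by gene length and by DESeq2 size factors over the 9 libraries times a constant (100% of values above 0 within 1%). Annotation release, strand setting and the handling of shared reads are not given in the sources used here. The file lengths span all exons of a gene, up to 8.04 times the canonical transcript (MGST1), so that levels between genes depend on the length used.

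The 6 libraries of each comparison were fitted with edgeR 4.0.16 in R 4.3.3 (TMM scaling, genes kept by filterByExpr with its count minimum set to 10, quasi-likelihood F test with robust dispersions), with Benjamini-Hochberg adjustment over all genes tested. The SE is the log2 fold change divided by the square root of F. These thresholds are those of the study, which used DESeq2. DESeq2 1.42.0, other scalings and filters, leaving out libraries and summed paralogs were tried as alternatives. The steps were checked on simulated counts. For a group with 0 counts, 3 counts over the group were taken as the floor. Counting intervals are exact 95% intervals of a ratio of summed counts scaled by TMM library sizes, and cover counting error only. The totals of 14638727 to 20179760 counts per library leave wide errors for genes near 10 counts.

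Members and lists were chosen with earlier results of these data known. The members named are those called in a comparison (13), those with a group mean of at least 10 FPKM (11) and 8 from the study's pathway table, 22 in all. Other tested members are given more briefly, and UGT1A3, UGT1A6, UGT2B10, UGT2B17 and UGT2B28 were named after their values were seen. The 8 companion lists and 5 marker lists were written by hand. Close paralogs were to be marked by protein identity. Coding sequences of GENCODE release 44 were used instead, with 52 members found by identifier and 2 by symbol. Of 58209 file identifiers in that release, 88.7% had the same chromosome, strand and at least 1 gene end. Promoter windows came from RefSeq (GRCh38.p14). The qRT-PCR and proteomic experiments were not analysed here. A gene of the transcription factor list and 1 promoter motif are not reported here.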

Additional observations from a re-analysis of the deposited data

Results flagged for a closer look

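The response of 10 members differed between the clones by the direct edgeR test of Mko-3 against Ako-3 libraries. The log2 differences were -3.45 for GSTA1, -1.21 for GSTA2, -1.31 for SULT1A2, -1.09 for SULT1C2, -1.06 for SULT1E1, -1.17 for SULT2A1, -1.14 for UGT2A3, -1.16 for UGT2B4 and 1.66 for UGT2B15, and UGT3A1 was at least 28.9-fold higher in Mko-3 cells. SULT1C2, SULT1E1 and SULT2A1 were called in this comparison and in neither comparison with control.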

How the results depend on the processing

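The counts of called members were 7, 4 and 10 in Ako-3 against control, Mko-3 against control and Mko-3 against Ako-3. With no threshold on the fold change they were 15, 19 and 17. Requiring at least 10 counts in every library left 0 called in Mko-3 against control, because UGT2B11, UGT2B15, UGT3A1 and SULT1B1 then drop out of the test. With any single library left out they were 6 to 7, 4 to 6 and 9 to 10. The replicate numbers did not pair the libraries (correlations of deviations between -0.07 and 0.06 for the same number), and with a replicate block the counts were 7, 4 and 10. Of 804 recomputed values of named members, 791 kept their direction and call, 6 lost and 5 gained the call, and 2 turned sign, both of GSTK1 in Mko-3 against control near 0 (-0.0217 without control replicate 3 and -0.0001 without Mko-3 replicate 1). UGT2A3 in Mko-3 against control was called, at 1.00 to 1.01, without control replicate 1 or 3 or Mko-3 replicate 3. With the length of the canonical transcript, an alternative chosen after seeing the data, the family sums in control, Ako-3 and Mko-3 cells were 9.004, 24.2 and 13.5 FPKM for UGT, 1863, 2156 and 2190 for GST and 96.5, 151 and 99.9 for SULT. Ratios to control then were 2.68 and 1.496, 1.16 and 1.18, and 1.57 and 1.03, so that the SULT ratio of Mko-3 passed from under to over 1. MGST1 ranked above GSTO1 with these lengths, and GSTP1 stayed first. None of the 25 untested members had more than 14 counts in a library, and for those that share exons or coding sequence with other genes the parts of depth and of shared reads in this were not tested.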
